A study of Mus musculus with 4 samples.

Results

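The genes described here are named for voltage-gated sodium, calcium and potassium channels and for the other potassium channels, and nearly all encode a channel subunit. They were measured in differentiated neurosphere cultures of APPswe/PS1dE9 and wild-type (WT) mice. The set is the mouse genes whose symbols begin with Kcn, Scn and a digit, Cacna, Cacnb or Cacng, apart from Kcnj10 and Kcne2. They were selected on measured detection flags and intensity: a probe had to be well above background, by the scanner software's own test, in 3 or all 4 of the RNAs of a genotype, and the brightest such probe stood for its gene. Of 133 genes with these names and a matched probe, 87 qualified, among 13664 named genes and 20591 features (named genes and unnamed transcripts) in all. Of the 87, Kcnq1ot1, a noncoding RNA, and Kcnrg, a channel regulator, encode no subunit.

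Channels set the electrical behaviour of a cell. Sodium channels carry the upstroke of the action potential, calcium channels couple depolarisation to transmitter release and transcription, and potassium channels repolarise the membrane and hold it at rest. Each is built around pore-forming subunits, and auxiliary subunits alter their traffic and gating. Neurons of the telencephalon express many of these genes together, and astrocytes use inward-rectifier and two-pore-domain potassium channels to buffer potassium.

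APPswe/PS1dE9 mice carry transgenes for a mutant amyloid precursor protein and for a presenilin-1 that lacks an exon, and are used as a model of familial Alzheimer's disease. Neural precursor cells were taken from the telencephalon of C57BL/6 embryos of both genotypes at day 13. They were expanded as neurospheres for 5 days in EGF and FGF2 and then differentiated without these factors for 7 days on poly-L-lysine and laminin. Each of 4 two-colour arrays carried RNA of 1 culture of either genotype, and the APPswe/PS1dE9 RNA was labelled with Cy3 for replicates 1 and 2 and with Cy5 for replicates 3 and 4. The 4 replicates of a genotype are called biological, with no word on separate embryos or litters, and the p-values cover no more than the spread among these arrays. Values are log2 ratios of APPswe/PS1dE9 over WT, fitted in limma with a term for the dye (± SE, n = 4 arrays). Adjusted p-values are limma's with Benjamini-Hochberg adjustment over all 20591 features, and a gene was called higher or lower where this was under 0.05.

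Each array had 59305 probe spots, of which 47.5% to 59.6% were well above background for a genotype, and none was saturated. Flags of Xist and the Y-linked Eif2s3y differed between the paired cultures on replicates 1 and 3, in opposite directions, and were alike on replicates 2 and 4. App was at 0.12 ± 0.06 (limma adjusted p = 0.281). Whether its probe also reads the transgene was not tested.

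Most of the measured channel genes were detected in both genotypes on every array. Of the 87, 73 were well above background in both genotypes on all 4 arrays, 80 met the detection rule through both genotypes, 5 through APPswe/PS1dE9 alone (Scn4b, Cacng8, Kcnk7, Cacna1s and Kcns3) and 2 through WT alone (Kcnk15 and Scn11a). No measured gene was below background on all arrays of a genotype. Just inside the rule, Scn4b, Cacng8 and Kcnk7 were detected on 3 APPswe/PS1dE9 and 1 WT array. Just outside it were 6 genes that reached 2 arrays, namely Cacnb2, Kcnj11, Kcng4, Kcnh8, Kcnq3 and Kcns2. Another 12 reached 1 array, among them the R-type calcium channel gene Cacna1e, and 28 were not well above background on any array. The undetected genes included the N-type gene Cacna1b, the L-type gene Cacna1c, the G-protein-gated inward rectifier Kcnj6, the classical inward rectifier Kcnj2, the microglial calcium-activated channel Kcnn4 and the beta subunit Kcnab2. By family, 10 of 12 sodium channel genes, 7 of 8 calcium channel gamma genes and 27 of 40 voltage-gated potassium pore genes were measured, against 6 of 14 inward rectifiers.

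**Figure D1:**
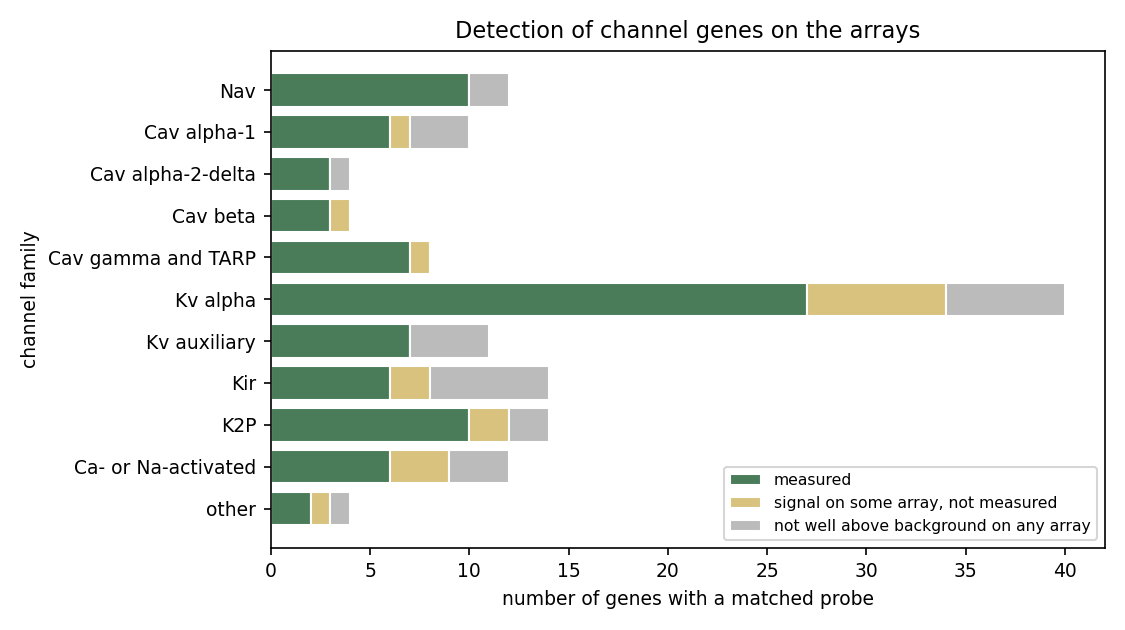
Number of channel genes with a matched probe (x axis) in each family (y axis), split by how far they were detected on the 4 arrays. Sodium channel genes (10 of 12) and calcium channel gamma genes (7 of 8) were mostly measured, and inward rectifiers (6 of 14) were not.

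Channel genes differed little between genotypes as a set. Of the 87, 11 were called higher in APPswe/PS1dE9 cultures (12.6%), 1 was called lower (1.15%) and 75 did not pass. Across all features 8.25% were called higher and 2.28% lower, and across named genes 11.0% and 2.57%, so the share of channel genes called was near the background. The median log2 ratio was 0.01 over the channel genes and 0.01 over all features, and the channel genes ran from -0.38 to 0.61. The genes that rose included the two-pore-domain channel gene Kcnk1, the sodium channel beta subunit genes Scn2b and Scn4b, the voltage-gated potassium channel genes Kcnc2, Kcnc4 and Kcna6, the inward-rectifier genes Kcnj4 and Kcnj16, and the auxiliary genes Cacng5 and Kcnip4. Scn4b qualified only through APPswe/PS1dE9, where it was high, so its place in these counts is a description. The T-type calcium channel gene Cacna1g fell. Among pore-forming subunits 6 of 61 were higher and 1 lower, and among auxiliary subunits 5 of 24 were higher and 0 lower, with medians of 0.00 and 0.03. That difference between roles was not tested.

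Calls were lost when an array was left out, and the folds moved by differing amounts. Each fit without 1 replicate left 1 array in that orientation, which the dye term fits exactly. The residual spread in such a fit came from the 2 arrays of the other orientation alone, which limits its p-values. Without replicate 3, limma called 1 channel gene higher (Kcnk1) and 0 lower (11 and 10 at an unadjusted p under 0.05), while 2.52% of all features were called higher. Without replicate 4 it called 0 and 0 (21 and 2 at an unadjusted p under 0.05), while 1.79% of all features were called higher. Replicates 2 and 4 alone, where the paired cultures were alike in the sex-linked flags, were fitted with no dye term. In that fit 0 and 0 were called (7 and 2 at an unadjusted p under 0.05). The unadjusted counts have no share of all features beside them and are a description. With no dye term on all 4 arrays the counts at the adjusted threshold were 8 higher and 1 lower. Without replicate 1 or replicate 2 the counts were 10 higher and 2 lower in either fit. Of the 11 higher genes, 8 were still called without replicate 1 and 9 without replicate 2, and the other higher calls were new. Cacna1g was still called lower without replicate 1 and was not without replicate 2. All 11 higher genes were above 0 on every array, so their log2 ratios could not turn negative in these fits. Over all fits tried, with other arrays or other processing, Kcnk1 ranged from 0.51 to 0.68, Kcnj16 from 0.32 to 0.57 and Scn4b from 0.29 to 0.82. As examples of the folds, without replicate 4 Cacng5 was at 0.59 in place of 0.50, Kcnj4 at 0.48 in place of 0.40 and Kcnc2 at 0.47 in place of 0.44. Over all features the higher calls went from 1698 to 368 in that fit, and the cause of the losses was not tested.

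**Figure D2:**
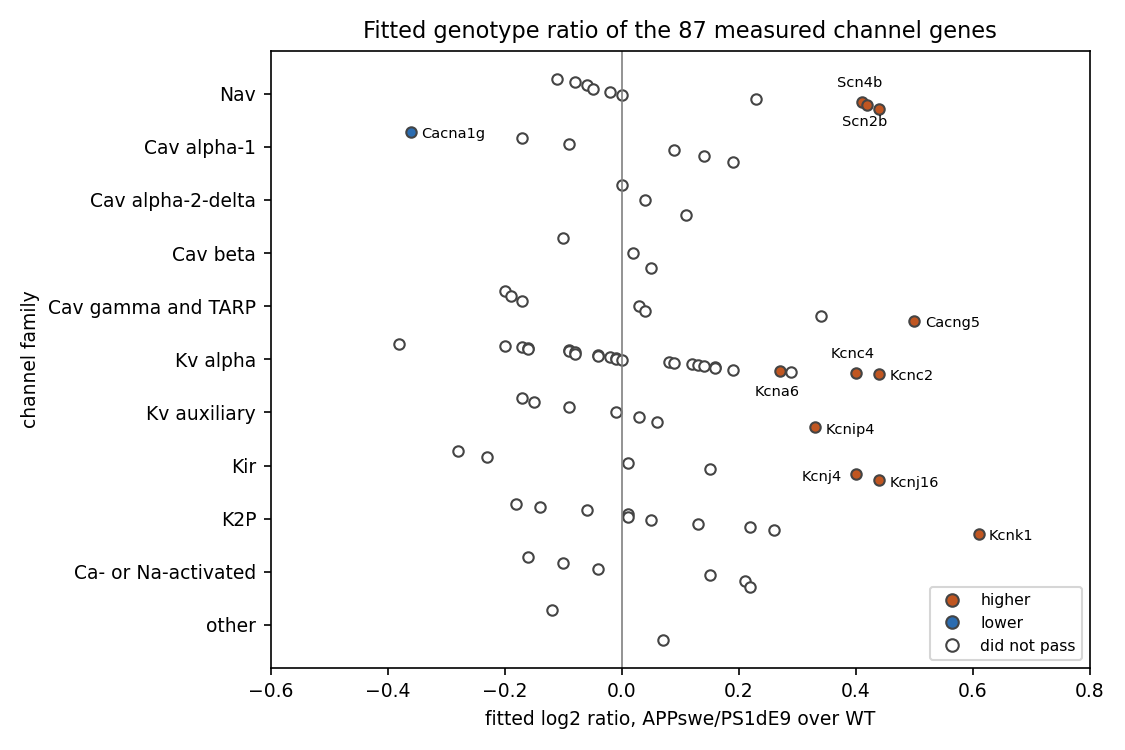
Fitted log2 ratio of APPswe/PS1dE9 over WT (x axis) for the 87 measured channel genes, by family (y axis), with orange points called higher, the blue point lower and white points not passed. The families were centred near 0, with the 11 higher genes between 0.27 and 0.61 and Cacna1g at -0.36.

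Levels per channel were compared on a log2 scale after normalization. All 4 APPswe/PS1dE9 levels lay above all 4 WT levels for 7 channel genes, and all WT levels above all APPswe/PS1dE9 levels for 2 (Cacna1g and Kcnmb4), of 85 with a value on every array. Over all features these shares were 8.00% and 4.49%. The 7 were Kcnk1, Cacng5, Kcnj16, Kcnj4, Kcnc2, Scn2b and Scn4b. Scn4b qualified only through APPswe/PS1dE9, where it was high, so its place among them is a description.

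Markers of several cell types differed between the genotypes in the same RNA. Of 10 astrocyte markers 7 were higher, with a median log2 ratio of 0.45 and a summed log2 level of 17.61 to 17.78 in APPswe/PS1dE9 against 17.02 to 17.41 in WT cultures. Of 11 measured microglia and macrophage markers 10 were higher, with a median of 2.07 and summed levels of 13.64 to 14.04 against 13.10 to 13.41. Of these, 5 qualified only through APPswe/PS1dE9, where they were high, so the count and median are a description: Ctss, Tyrobp and Trem2 were well above background on 1 WT array each and Cx3cr1 and C1qa on 2. Among those detected on all arrays of both genotypes, Fcer1g was at 2.23 ± 0.06, Csf1r at 0.95 ± 0.07 and Itgam at 0.11 ± 0.10. Of 12 neuronal markers 2 were higher (Syt1 and Syp) and 4 lower (Nefm, Nefl, Dcx and Elavl3), with a median of -0.16 and summed levels of 16.58 to 16.76 against 16.72 to 16.93. Of 7 measured markers of ependyma and choroid plexus 6 were higher, with summed levels of 13.30 to 13.80 against 12.35 to 12.57. No marker of oligodendrocytes or their precursors, 6 in each list, was called. The part of these markers in the channel values was not tested, and in RNA of whole cultures more cells of a type and more RNA per cell cannot be told apart.

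Among the sodium channels, the beta subunit genes Scn2b and Scn4b were called higher and no alpha subunit gene passed. Beta subunits are single-span proteins of the immunoglobulin type that modulate the pore and take part in cell adhesion. Scn2b had log2 levels of 9.37, 9.59, 9.14 and 9.30 in the 4 APPswe/PS1dE9 cultures and of 8.70, 9.05, 8.90 and 9.07 in the WT cultures. Every APPswe/PS1dE9 level lay above every WT level. Its log2 ratio was 0.67, 0.54, 0.24 and 0.23 on replicates 1 to 4, and the fit was 0.42 ± 0.06, or 1.34-fold (limma adjusted p = 0.0110). The ratio was higher on the arrays with APPswe/PS1dE9 in Cy3. Scn4b was at 0.62, 0.13, 0.41 and 0.47, with a fit of 0.41 ± 0.09 (limma adjusted p = 0.0428). Since Scn4b qualified only through the genotype in which it was high, its difference is a description. Without replicate 3 or without replicate 4 neither gene passed (limma adjusted p from 0.0859 to 0.199), and the Scn4b call was also lost when replicate 1 was left out (adjusted p = 0.0633).

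Scn2b and Scn4b both lie on chromosome 9. Their RefSeq promoter windows, which span the annotated start on GRCm38.p6, are shown because both genes were called. Capitals mark a match to a searched motif. The motifs, on both strands, were the STAT palindrome TTCNNNGAA, the interferon-stimulated response element core GAAANNGAA, the REST half-site TCAGCACC, the cAMP response element TGACGTCA and the TATA box TATAAA, and the STAT and interferon motifs can overlap.
Scn2b, chr9:45117626-45117925, plus strand: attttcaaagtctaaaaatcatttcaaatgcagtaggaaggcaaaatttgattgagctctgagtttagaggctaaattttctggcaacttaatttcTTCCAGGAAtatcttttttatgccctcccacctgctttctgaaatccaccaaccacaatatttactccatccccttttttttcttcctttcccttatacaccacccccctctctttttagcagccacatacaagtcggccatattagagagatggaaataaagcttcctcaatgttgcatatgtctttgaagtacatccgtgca
Scn4b, chr9:45138374-45138673, plus strand: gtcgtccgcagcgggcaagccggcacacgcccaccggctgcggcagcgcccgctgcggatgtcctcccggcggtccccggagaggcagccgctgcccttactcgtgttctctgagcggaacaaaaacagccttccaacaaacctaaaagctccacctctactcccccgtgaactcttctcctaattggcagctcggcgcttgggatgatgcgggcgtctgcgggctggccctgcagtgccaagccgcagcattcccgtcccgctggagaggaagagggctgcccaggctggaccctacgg
The Scn2b window held 1 STAT palindrome, 38.3% G and C and 2 CG dinucleotides. The Scn4b window held no match, 66.3% G and C and 26 CG dinucleotides, so the windows differed widely in base composition. Of all 32851 windows 8.3% held the STAT palindrome, 8.56% the interferon element core, 1.65% the REST half-site, 1.79% the cAMP response element and 13.6% the TATA box. Windows were found for 65 of the 87 channel genes, 92 in all, and 9.78%, 12%, 0%, 0% and 6.52% of them held these motifs. A match describes the letters and no more, and a missing match says only that they are not in the window. The array's own annotation uses build mm9, and the tables were joined by accession.

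The 7 measured alpha genes lay between -0.11 and 0.23, with a median of -0.05. Scn2a, the main alpha subunit of immature excitatory neurons, was at 0.14, 0.04, 0.52 and 0.20 (fit 0.23 ± 0.08, limma adjusted p = 0.124), and its other probes were at 0.13 and 0.06. Scn8a, the alpha subunit of the mature axon initial segment, was at -0.53, -0.48, 0.71 and 0.31 with a fit of 0.00 ± 0.08. Its sign thus differed between the dye orientations, which also held different cultures. Scn1a, the alpha subunit of inhibitory interneurons, was at -0.06 ± 0.06 and Scn3a, abundant in the embryonic brain, at -0.11 ± 0.07. A second Scn1a probe was at 1.1 on replicate 2 and between -0.09 and 0.07 on the other arrays. Scn7a and Scn10a were not well above background on any array.

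**Figure D3:**
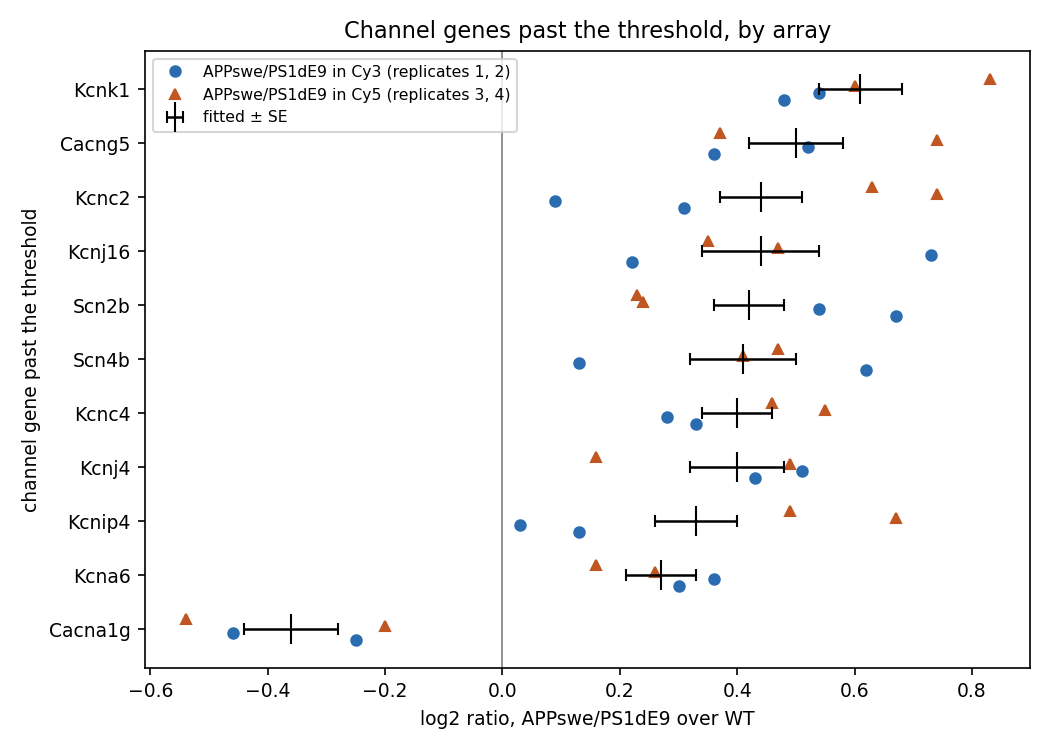
Log2 ratio of APPswe/PS1dE9 over WT (x axis) on each array for 11 of the 12 called channel genes (y axis), with circles for replicates 1 and 2, triangles for replicates 3 and 4, and black bars for the fit ± SE. The 10 higher genes drawn were above 0 on 4 of 4 arrays and Cacna1g below 0 on 4 of 4, with Kcnip4 (0.03) and Kcnc2 (0.09) closest to 0, on replicate 2.

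Of the calcium channel pore genes, Cacna1g fell and the other 5 measured did not pass. It encodes a T-type channel, which opens near rest and supports burst firing. Its log2 level was 9.14, 9.11, 9.36 and 9.30 in APPswe/PS1dE9 and 9.39, 9.58, 9.57 and 9.84 in WT cultures, so every WT level lay above every APPswe/PS1dE9 level. The log2 ratio was -0.25, -0.46, -0.20 and -0.54, and the fit was -0.36 ± 0.08 (limma adjusted p = 0.0425). A second Cacna1g probe, detected on all arrays, was at -0.06 ± 0.07, and the mean of both was -0.21 (adjusted p = 0.118). The call was lost without replicate 2, 3 or 4 (adjusted p of 0.0803, 0.0901 and 0.177). The other T-type genes Cacna1h (-0.17 ± 0.07) and Cacna1i (-0.09 ± 0.09) did not pass. Nor did the P/Q-type gene Cacna1a at 0.19 ± 0.07, with a second probe at 0.24. The L-type gene Cacna1d was at 0.80 on replicate 2 and from -0.30 to -0.04 on the others (fit 0.09 ± 0.14).

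Cacng5 rose among the calcium channel auxiliary genes. It belongs to the family of transmembrane proteins that regulate AMPA-type glutamate receptors, although it is named for calcium channels. Its log2 level was 8.85, 8.94, 9.26 and 9.10 in APPswe/PS1dE9 and 8.49, 8.42, 8.52 and 8.73 in WT cultures. The groups did not overlap. The log2 ratio was 0.36, 0.52, 0.74 and 0.37, with a fit of 0.50 ± 0.08, or 1.41-fold (limma adjusted p = 0.0162). It did not pass without replicate 3 (0.0941) or replicate 4 (0.0590). Cacng3, another regulator of this family, was at 1.09 on replicate 2 and from 0.06 to 0.11 on the others (fit 0.34 ± 0.16, limma adjusted p = 0.242). Without replicate 1 its fit was 0.59 and without replicate 2 it was 0.09, so the value depended on the arrays used. Without replicate 1, replicate 2 was the only array of its orientation. Its 1.09 then weighed as much as replicates 3 and 4 together and added nothing to the SE. Cacng2 (-0.19 ± 0.09), Cacng4 (-0.17 ± 0.08), Cacng7 (0.03 ± 0.06) and Cacng8 (0.04 ± 0.06) did not pass. The beta subunit genes Cacnb1, Cacnb3 and Cacnb4, which bring the pore to the membrane, lay between -0.10 and 0.05, and the alpha-2-delta genes Cacna2d1, Cacna2d2 and Cacna2d3 between 0.00 and 0.11.

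Of 27 measured voltage-gated potassium pore genes 3 rose and none was called lower, with a median of -0.01. Kcnc2 and Kcnc4 encode channels of the Shaw-related group, which in fast-spiking neurons repolarises the membrane quickly. Kcnc2 had log2 levels of 8.03, 7.85, 8.45 and 8.31 in APPswe/PS1dE9 and 7.73, 7.76, 7.71 and 7.68 in WT cultures, with no overlap. Its log2 ratio was 0.31, 0.09, 0.74 and 0.63, larger with APPswe/PS1dE9 in Cy5, and the fit was 0.44 ± 0.07 (limma adjusted p = 0.0129, and 0.0609 with no dye term). Kcnc4 was at 0.33, 0.28, 0.55 and 0.46, with a fit of 0.40 ± 0.06 (limma adjusted p = 0.0116). It was positive on every array, although its levels overlapped. Without replicate 3 or 4 neither passed, at adjusted p of 0.106 and 0.0996 for Kcnc2 and of 0.0876 in both fits for Kcnc4. The related Kcnc1 (-0.20 ± 0.07) did not pass. Kcna6, a Shaker-related delayed rectifier, was at 0.30, 0.36, 0.26 and 0.16, with a fit of 0.27 ± 0.06 (limma adjusted p = 0.0458). It was the called gene nearest the threshold, and its second probe was at 0.07 ± 0.08. It did not pass without any 1 of the 4 replicates (adjusted p of 0.0676, 0.129, 0.177 and 0.143). Kcna1 (0.09 ± 0.07) and Kcna2 (-0.08 ± 0.06), the axonal members of this group, did not pass. Kcna4 was at -0.35, -0.57, 1.01 and 0.56 on replicates 1 to 4, opposite in sign between the dye orientations.

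Kcnd3, which like Kcnd2 encodes a pore of the A-type current, had the lowest fit of all measured channel genes and did not pass. It was at -0.58, -0.55, 0.06 and -0.44 on replicates 1 to 4 (fit -0.38 ± 0.09, limma adjusted p = 0.0560), so replicate 3 stood apart. It passed under 5 of the 14 alternatives, with the mean over its probes at -0.29 (adjusted p = 0.0384). Kcnd2 was at -0.17 ± 0.06. Of the auxiliary genes whose calcium-binding proteins attach to these channels, Kcnip4 rose, with 0.13, 0.03, 0.67 and 0.49 and a fit of 0.33 ± 0.07 (limma adjusted p = 0.0288). That ratio came mainly from replicates 3 and 4, and with no dye term the adjusted p was 0.148. A second Kcnip4 probe was at 0.10 ± 0.07 and was not well above background on any WT array. Without replicate 1, 3 or 4 Kcnip4 did not pass (adjusted p of 0.0530, 0.145 and 0.108). Kcnip1 (-0.17 ± 0.07) and Kcnip3 (-0.15 ± 0.06) did not pass.

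Of 6 measured inward-rectifier genes 2 rose. Kcnj16 encodes a subunit that pairs with the Kcnj10 product in astrocytes, and Kcnj10 itself, an astrocyte marker, was at 0.57 ± 0.12 (limma adjusted p = 0.0392, and 0.156 and 0.213 without replicates 3 and 4). Kcnj16 had log2 levels of 9.93, 10.24, 9.75 and 9.72 in APPswe/PS1dE9 and 9.71, 9.51, 9.28 and 9.36 in WT cultures, with no overlap. Its log2 ratio was 0.22, 0.73, 0.47 and 0.35, with a fit of 0.44 ± 0.10 (limma adjusted p = 0.0376). Both genes were highest on replicate 2, where Kcnj10 stood at 1.08. Kcnj16 did not pass without replicate 2, 3 or 4 (adjusted p of 0.0532, 0.203 and 0.166). Kcnj4, a strong inward rectifier of forebrain neurons, had log2 levels of 10.72, 10.97, 10.74 and 10.67 against 10.29, 10.46, 10.26 and 10.51. Its groups did not overlap, and the fit was 0.40 ± 0.08 (limma adjusted p = 0.0262, and 0.122 and 0.0745 without replicates 3 and 4). Kcnj12, of the same group, was at -0.34, 0.01, -0.36 and -0.44 (fit -0.28 ± 0.08, limma adjusted p = 0.0772). It was called lower with the scanner software's processed signals (-0.58, adjusted p = 0.0369). Without replicate 2 its fit was -0.37 and was also called lower, with replicate 1 the only array of its orientation. The G-protein-gated genes Kcnj3 (-0.23 ± 0.09, fitted on 3 arrays without replicate 1) and Kcnj9 (0.01 ± 0.08) did not pass.

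One of the Kcnj16 promoter windows is shown because 2 of the searched motifs overlap in it. Capitals mark the joined stretch of a STAT palindrome and an interferon element core, on GRCm38.p6 from RefSeq.
Kcnj16, chr11:110967783-110968082, plus strand: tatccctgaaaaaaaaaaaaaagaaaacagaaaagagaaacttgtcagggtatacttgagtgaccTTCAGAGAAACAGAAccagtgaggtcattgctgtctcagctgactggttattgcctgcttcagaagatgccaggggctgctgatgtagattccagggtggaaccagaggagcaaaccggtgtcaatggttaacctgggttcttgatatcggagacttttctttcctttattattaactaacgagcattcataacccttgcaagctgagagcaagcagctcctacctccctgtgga
Among the 18 windows of 10 higher genes, 4 held the interferon element core (22.2%), in Kcnc2 and Kcnj16, and 2 the STAT palindrome (11.1%), in Kcnj16 and Scn2b. Windows of 1 gene can overlap, as those of Kcnc2 do, so they are not independent.

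Kcnk1 had the largest ratio of the channel genes. It encodes a two-pore-domain potassium channel that is abundant in astrocytes and contributes to their passive conductance. Its log2 level was 9.74, 9.83, 9.71 and 9.95 in APPswe/PS1dE9 and 9.26, 9.29, 9.11 and 9.12 in WT cultures, so the groups lay clear of each other. The log2 ratio was 0.48, 0.54, 0.60 and 0.83, and the fit was 0.61 ± 0.07, or 1.53-fold (limma adjusted p = 0.00419). It passed under 12 of 14 alternatives and missed the threshold without replicate 4 (adjusted p = 0.0577) and with replicates 2 and 4 alone (adjusted p = 0.0608). The other 9 measured genes of this family did not pass. Among them Kcnk2, which can pair with the Kcnk1 product, was at 0.01 ± 0.07, Kcnk10 at -0.18 ± 0.07, the acid-sensitive Kcnk3 at 0.13 ± 0.07 and the microglial channel gene Kcnk13 at 0.01 ± 0.06.

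None of the 6 measured calcium- or sodium-activated potassium channel genes passed. Kcnma1, the large-conductance pore, was at 0.11, 0.26, 0.41 and 0.09 (fit 0.22 ± 0.08, limma adjusted p = 0.15). A second Kcnma1 probe was at 1.12 on replicate 2 and from -0.06 to 0.25 on the others. Its neuronal beta subunit gene Kcnmb4 was at -0.16 ± 0.07, with all WT levels above all APPswe/PS1dE9 levels. The small-conductance genes Kcnn2 and Kcnn3 were at -0.04 ± 0.06 and 0.21 ± 0.06, and the sodium-activated Kcnt1 at 0.15 ± 0.09. Kcnq1ot1, a long noncoding RNA that shares the name stem, was at 0.07 ± 0.15.

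The 2 dye orientations gave opposite mean signs for 33 of the 87 channel genes (37.9%), against 44.4% of all features. None of the called genes could be among the 33, since each had the same sign on every array. Orientations differed by over 0.5 for 7 genes, with Kcna4 at -0.46 in Cy3 and 0.78 in Cy5, Scn8a at -0.50 and 0.51, and Cacna2d2 at -0.31 and 0.39. Cacna1d went the other way, at 0.38 and -0.20. The fit places such a difference in its dye term, so the SE covers only the spread within an orientation. The cultures also differed between the orientations, so a dye effect and a culture difference cannot be told apart. Across the channel genes, which are not independent replicates, the Spearman correlation of the log2 ratios was 0.61 and 0.68 between arrays of 1 orientation and 0.29 to 0.32 between orientations.

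**Figure D4:**
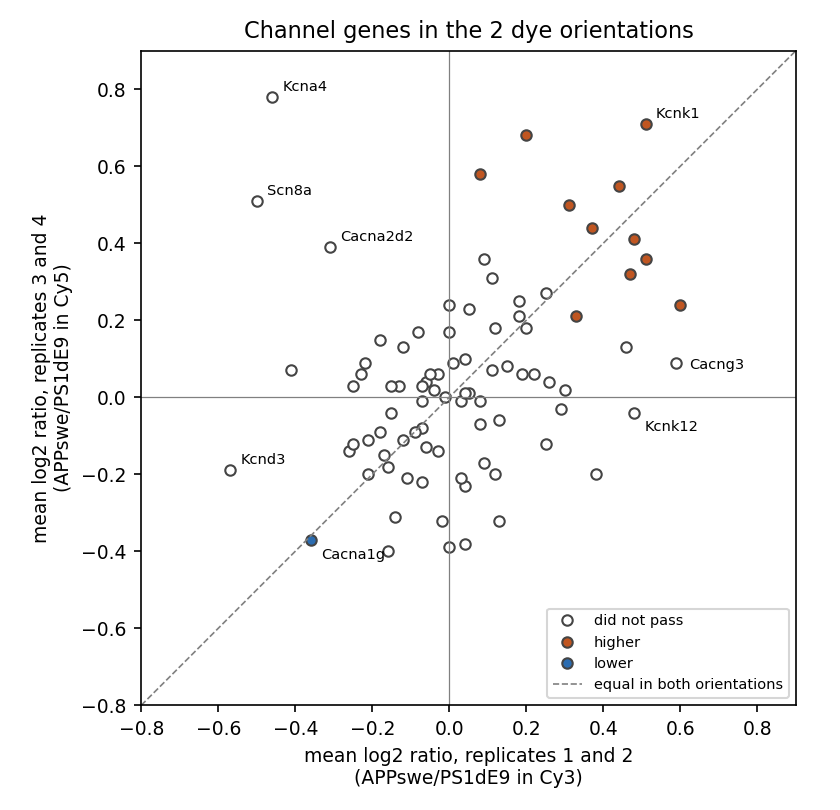
Mean log2 ratio of each channel gene on replicates 1 and 2 (x axis, APPswe/PS1dE9 in Cy3) and on replicates 3 and 4 (y axis, APPswe/PS1dE9 in Cy5), with the dashed line where both are equal. The called genes, each with the same sign on every array, lay in the quadrants of equal sign. Kcna4 (-0.46 and 0.78) and Scn8a (-0.50 and 0.51) lay far from the line.

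Other genes of channel complexes, clustering and cation conductance were also mostly level. Of 60 such genes 51 were measured, and 2 were called higher, 1 lower and 48 not, with a median of 0.03. Across all features 8.25% were called higher and 2.28% lower, so most features were level too. P2rx7, an ATP-gated cation channel known from microglia, was at 0.93 ± 0.07 (limma adjusted p = 0.000866), and P2rx4, of the same family, at 0.37 ± 0.08 (adjusted p = 0.0388). The P2rx7 call held under all 14 alternatives, and that of P2rx4 was lost without replicate 1, 3 or 4 (adjusted p of 0.0621, 0.104 and 0.179). Cntnap2, which clusters Shaker-related channels beside the node of Ranvier, was at -0.60 ± 0.09 (limma adjusted p = 0.0113). With the mean over its probes it was at -0.27 (adjusted p = 0.0489). The call was lost without replicate 3 or 4 (-0.50 and -0.69) and with replicates 2 and 4 alone (-0.57). It was also lost with processed signals (adjusted p = 0.0533) and with the deposited value table made from them (0.0532). The initial-segment scaffold gene Ank3 was at -0.13 ± 0.12. Rest, a repressor of neuronal genes that include channels, was at 0.20 ± 0.07 (limma adjusted p = 0.143).

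Calls were lost under other processing. No called channel gene changed sign, and a change was possible only where the signals, their normalization or the probe rule differed. With the scanner software's processed signals, Kcnk1 alone was called higher (0.58, adjusted p = 0.0465) and Kcnj12 alone lower. The median over all features was -0.06 under that setting and -0.07 with median centring, against 0.01. Median centring gave 8 higher and 4 lower channel genes, and moved the share of higher among all calls from 78.3% to 50%.

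**Figure D5:**
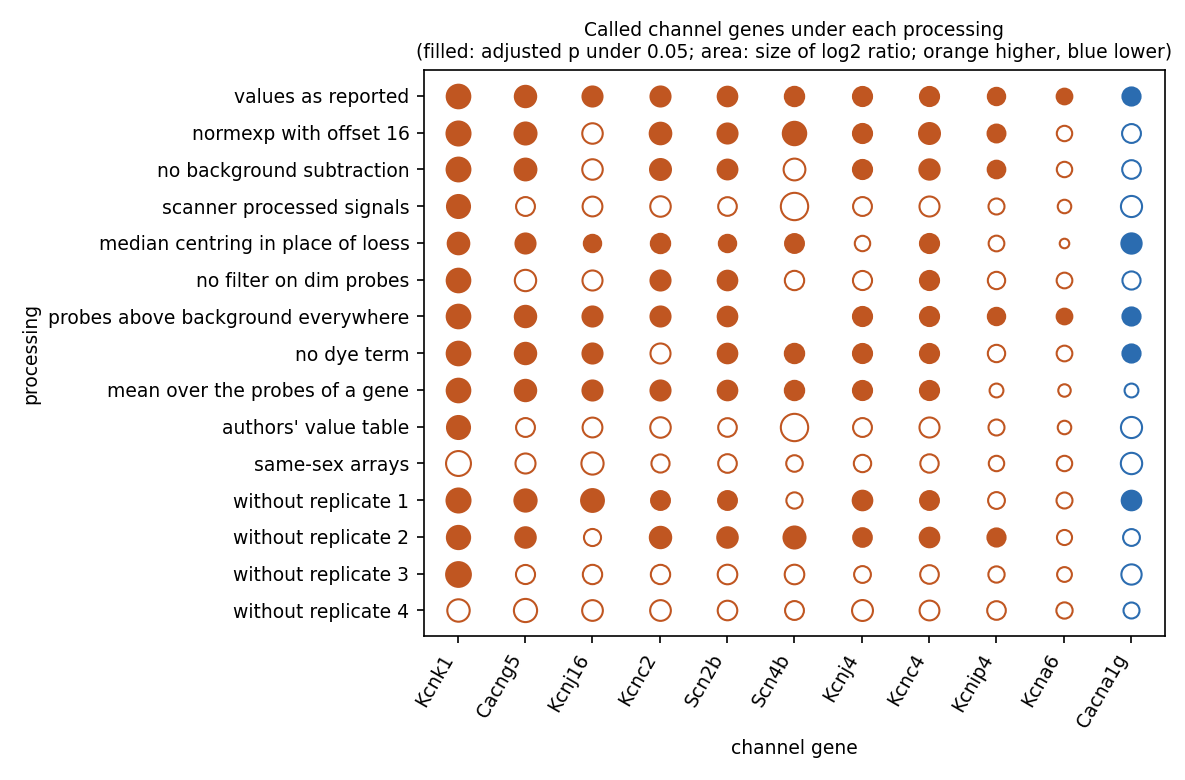
Of the 12 called channel genes, 11 (x axis) under each processing (y axis), with filled circles where the adjusted p was under 0.05, area for the size of the log2 ratio, orange for higher and blue for lower. Kcnk1 was filled under 12 of 14 alternatives and Kcna6 under 1, and Scn4b has no circle where probes had to be above background everywhere.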

How the data were processed

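All 4 arrays were on 1 slide and in 1 scan, and Feature Extraction 11.0.1.1 read the spots, per the file headers. The authors deposited raw spot and background intensity (medians over pixels). In the same deposited files is a second intensity, corrected for background and dye by the software per the file headers. The log10 ratio of Cy5 to Cy3 that the authors deposited was made from it. The value table that the authors deposited holds log2 ratios of the processed signals with APPswe/PS1dE9 over WT and no centring. It does not say so, and this was found by setting it against the scanner files (slopes -1, -1, 1 and 1 on Cy5 over Cy3, column medians -0.0797, -0.155, -0.0373 and -0.0378).

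In limma 3.58.1 (R 4.3.3), normexp with an offset of 50 removed background, which draws ratios of dim spots towards 0, and loess was run within arrays with control and outlier spots at weight 0 and then left out. Spots of a probe were averaged. Of 55681 probes 26912 were kept by the detection rule, and 27509 matched 20887 symbols by accession in a RefSeq table of GRCm38.p6, used for names because the array's build differs. The fit (lmFit, eBayes) held a genotype coefficient and a dye intercept, and P-values are two-sided. Degrees of freedom were 2 (residual) and 4.13 (prior). The dye term had an adjusted p under 0.05 in 0 features. Levels per channel followed loess and Aquantile. Precision is limited by having 4 arrays. Tested on simulated data with these spreads, the fit recovered the larger changes, and the share of false calls was above what the threshold implies.

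The genes and lists were chosen with earlier results of these data known. Named genes were called members (up to 15 in each direction), a list of textbook members, and called partner genes. Other genes are named as examples chosen after their values were seen, and some genes that are counted are not reported here by name. Alternatives changed the offset, background, signal source, normalization, filter, dye term, probe rule and arrays used.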

Additional observations from a re-analysis of the deposited data

Results flagged for a closer look

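For 85 channel genes with a value on all 4 arrays, the gap between an extreme array and its nearest neighbour was compared with the whole range (Dixon's ratio, at its 95% critical value). In 5 genes 1 array stood apart, of which 4 are given here, and chance alone sets apart about 1 in 20 groups. Cacng3 was at 1.09 on replicate 2 and from 0.06 to 0.11 on the others. Kcnk16 was at -0.30 on replicate 2, with the others from -0.10 to -0.07, and Scn4a was at -0.28 on replicate 2, with the others from 0.01 to 0.04. On replicate 4, Cacng8 was at -0.07 against 0.06 to 0.09. None of the 5 genes was called.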

How the results depend on the processing

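Under the alternatives tried, no channel gene that was called changed sign. Where arrays were left out this was fixed beforehand, since each called gene had the same sign on every array. It was also fixed with no dye term, with no filter and with probes detected in both channels of all arrays. Those fits used the same probes and array ratios of the called genes. The count of 11 higher channel genes became 1 with processed signals and 1 with the deposited value table. That table holds ratios of the processed signals, so these are not separate checks, although they count as 2 of the 14 alternatives. It became 4 with no filter on dim probes and 0 on the same-sex arrays (replicates 2 and 4, fitted with no dye term). The count of 1 lower became 0 with an offset of 16, 0 with no background subtraction, 0 with no filter, 0 on the same-sex arrays, 4 with median centring and 2 with probes detected in both channels of all arrays. Leaving out each replicate gave 0 to 10 higher and 0 to 2 lower. Counts of 0 are limma's. At an unadjusted p under 0.05 the same-sex arrays gave 7 higher and 2 lower, and the fit without replicate 4 gave 21 and 2. With all 4 arrays these were 20 and 12. The share of all features at this unadjusted threshold was not counted, so these counts do not show that a difference was kept. Over all features, 1698 higher and 470 lower became 715 and 240 with processed signals, 960 and 103 with no filter (37018 features), 1308 and 1307 with median centring, 470 and 11 on the same-sex arrays, 519 and 29 without replicate 3 and 368 and 4 without replicate 4. The causes were not tested. Calls were lost under 2 of 14 alternatives for Kcnk1, 5 for Kcnc4 and Scn2b, 6 for Cacng5 and Kcnc2, 7 for Kcnj4, 9 for Kcnj16, 10 for Kcnip4 and Cacna1g and 13 for Kcna6, and under 8 of 13 for Scn4b. The fit is itself paired, since each array sets 1 culture of either genotype against the other. Signal over background limits the dim genes: for Kcnk7 the log2 ratio was 0.26, and 0.93 with processed signals.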
